A study of Danio rerio with 15 samples.

Results

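The genes described here are scinla, a scinderin-like gene of zebrafish, and 7 further listed members of the gelsolin family (scinlb, scinb, gsna, gsnb, vil1, vill and capgb). scinla was chosen because it was higher in actl6a mutants in these same libraries, so its difference between the groups is given as a description and is not tested. The other members were chosen as its family, by symbol. Rows of the count tables were matched to symbols by RefSeq accession, with the version ignored, and the accession with the highest summed count stood for a symbol. In this way 5 of the 8 listed genes, of 33298 accessions in all, were found: scinla, scinlb, gsna, vil1 and capgb. No row matched gsnb or vill. The symbol scinb is absent from the gene names used for the matching, so it could not be looked up. These 3 are not analysed here.

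Proteins of this family bind actin filaments through repeated gelsolin domains. In mammals gelsolin and scinderin (adseverin) sever filaments when calcium rises and then cap the fast-growing end, which limits regrowth. Villin does the same in microvilli and also bundles filaments in the brush border of intestine and kidney tubule. CapG, the capping protein of macrophages, caps filaments without severing them, so the family is not made up of severing proteins alone. scinla is known in zebrafish for its high level in the cornea.

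RNA was sequenced from pronephric ducts, the tubes that drain the larval kidney, at 72 hours post fertilization (hpf). The 7 sibling libraries carry the genotype label WT, and the 8 mutant libraries carry the label actl6a knockout, a homozygous CRISPR/Cas9 mutation. The protein made from actl6a belongs to the SWI/SNF family of chromatin remodellers, and the study asked about its part in cilia and pronephros. Both groups came from incrosses in a transgenic line in which the promoter of a sodium-potassium ATPase gene drives GFP in pronephric epithelium. Each group used 15 embryos, from which about 10 fluorescent duct fragments were picked by eye after collagenase. Whether siblings included heterozygotes is not stated, nor is the number of founders, and libraries may share embryos of 1 pool, so p-values measure the spread between libraries.

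Total counts per library ran from 1583052 to 4013852. Levels of genes and marker sums are given as CPM scaled by trimmed-mean (TMM) factors, on which 1 count equals 0.247 to 0.738 CPM. All siblings lie in 1 sequencing index and all mutants in the other, so an effect of the index and one of the genotype cannot be told apart. actl6a itself ran from 63.8 to 93.8 CPM in siblings and from 9.87 to 38.9 CPM in mutants, with no overlap. Mutant replicates 4, 5, 6 and 8 stand apart by their number of detected accessions, 25684 to 27413 against 18188 to 23992 in the other libraries. They are also the deepest mutant libraries, with total counts of 2623014 to 4013852 against 1583052 to 2274156 in the other mutants. Markers of pronephric epithelium summed to 3997 to 5828 CPM in siblings and 1967 to 6590 CPM in mutants, with 19 of 24 listed genes found. Of those 19, gata3 had no count in siblings. By that sum mutant replicates 4, 5, 6 and 8, the libraries with many detected accessions, lay below every sibling, and 1 mutant lay above every sibling. The tested values come from 1 edgeR quasi-likelihood fit to all 12914 accessions that passed its filter on low counts, with Benjamini-Hochberg adjustment over all of them. In that fit 19.2% of accessions were called at an adjusted p under 0.05, 13.6% as higher and 5.54% as lower in mutants. In bulk tissue, more cells of a type and more RNA per cell cannot be told apart.

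scinla (NM_178131.3) was low in every sibling library and 8.80 times higher on average in mutants. Its lowest, median and highest sibling levels were 3.11, 10.4 and 15.3 CPM, and those of the mutants were 65.7, 77.6 and 147.7 CPM. Every mutant thus lay above every sibling, as was the case for 1.57% of tested accessions (2.31% when either direction is counted). The means were 10.0 ± 4.41 CPM (SD, n = 7) and 88.2 ± 29.3 CPM (SD, n = 8), and the fitted log2 fold change was 3.09. These values chose the gene and carry no test.

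Among mutants, 6 of 8 scinla levels lay close together, from 65.7 to 80.8 CPM, while replicates 6 and 7 stood above them at 147.7 and 118.5 CPM. The level was similar in the mutant libraries with many and with few detected accessions. It was 67.3 to 147.7 CPM in replicates 4, 5, 6 and 8 and 65.7 to 118.5 CPM in replicates 1, 2, 3 and 7. The fitted value was 2.95 without replicates 4, 5, 6 and 8, and 2.57 with the summed level of epidermal markers as a term, the lowest among the alternatives tried. Of the 5 genes' summed counts, scinla held 3.66% to 11.4% in siblings and 22.1% to 35.5% in mutants. Markers of cornea and lens summed to 23.5 to 190.3 CPM in siblings and 135.8 to 346.8 CPM in mutants. Of 13 listed markers 7 were found, and of these crygm2d2 was at 0 in all libraries and crygm2d1 in all siblings. The corneal genes aldh3a1, krt3 and krt12 of the list were not among those found, so the sum says little about cornea. The lens crystallin gene cryaa had a sibling median of 6.01 CPM and a mutant median of 0.559 CPM. It did not pass the filter on low counts, and only 2 genes of the list, aqp3a and mipa, were tested. mipa, which encodes a water channel of lens fibres, went from a sibling median of 2.17 CPM to a mutant median of 16.2 CPM, with 7 of 8 mutants above every sibling. It was called (3.55 on the log2 scale, edgeR adjusted p = 0.000744) and aqp3a was not (edgeR adjusted p = 0.0688). With at most 3.61 CPM in any sibling, mipa passed the filter through the mutants, so nothing is read from its call. In mutants most of the sum was the water channel gene aqp3a, with a median of 196.7 CPM, which skin also expresses. Their part in the level of scinla was not tested beyond these values.

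The paralog scinlb (NM_213090.2) did not share this pattern of separation. Its lowest, median and highest levels were 24.9, 41.5 and 65.9 CPM in siblings and 27.2, 64.6 and 73.6 CPM in mutants. Sibling replicate 4 lay among the mutants and mutant replicate 2 among the siblings, so that 4 of 8 mutants lay above every sibling. The log2 fold change was 0.54 (SE 0.21), and edgeR did not call it (adjusted p = 0.0834). The exact two-sided permutation test gave an unadjusted p = 0.0413. It was called without sibling replicate 4 (edgeR adjusted p = 0.0450), without mutant replicate 2 (edgeR adjusted p = 0.0315) and by limma with voom (adjusted p = 0.0126). scinla made up 6.90% to 27.0% of the summed level of both paralogs in siblings and 49.8% to 74.2% in mutants. How reads shared by such paralogs were assigned is not given in the sources used here.

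gsna, the gelsolin gene with counts here, was modestly higher in mutants. Its main accession (NM_001012312.2) reached 38.6, 64.9 and 79.7 CPM as its lowest, median and highest sibling levels, and 51.7, 96.4 and 138.0 CPM as those of the mutants. Mutant replicate 1 was the only mutant below the highest sibling, and the other 7 of 8 lay above every sibling. The log2 fold change was 0.75 (SE 0.19, edgeR adjusted p = 0.0128; exact two-sided permutation p = 0.00559, unadjusted). The call was lost in 5 alternatives, among them the fit without mutant replicates 4, 5, 6 and 8, where the value was 0.69 (edgeR adjusted p = 0.135).

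**Figure D1:**
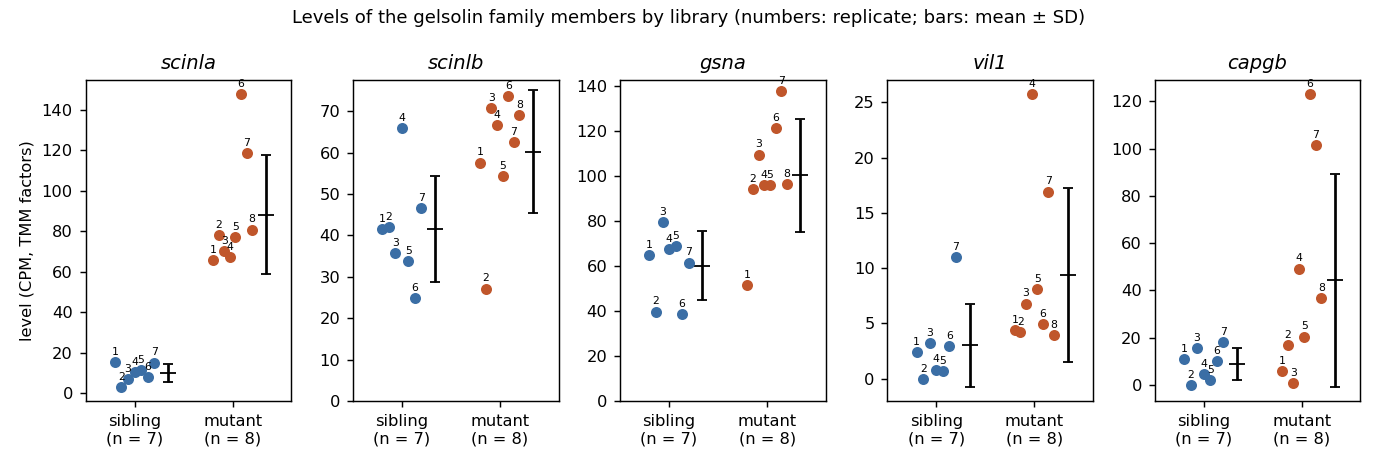
Level of each of the 5 genes found, in CPM with TMM factors on a linear axis of its own, for 7 sibling (blue) and 8 mutant (orange) libraries; numbers are replicates and black bars are the mean ± SD. For scinla all mutants, at 65.7 CPM or more, lie above all siblings, at 15.3 CPM or less, whereas the groups overlap for the other genes.

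A second accession of gsna, XM_021468752.1, had a row of its own. How reads shared by both accessions were assigned is not given in the sources used here, so their counts may not separate the gene's transcripts. The second accession ran from 7.77 to 24.6 CPM in siblings, with a median of 18.1, and from 11.1 to 84.7 CPM in mutants, with a median of 52.1. Again 7 of 8 mutants lay above every sibling, and the log2 fold change was 1.63 (SE 0.34, edgeR adjusted p = 0.00418). Without mutant replicates 4, 5, 6 and 8 it was 0.92 and was not called (edgeR adjusted p = 0.189), nor was it with the epidermal marker sum (adjusted p = 0.247) or the number of detected accessions (adjusted p = 0.0560) as a term. With both accessions summed, gsna had a log2 fold change of 0.98 (edgeR adjusted p = 0.00432).

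The second accession held a larger part of the gsna counts in some mutant libraries. Its share was 13.5% to 31.9% in siblings (mean 21.4% ± 6.95, SD, n = 7) and 17.6% to 41.1% in mutants (mean 31.2% ± 9.49, SD, n = 8). The exact two-sided permutation test gave p = 0.0452 for the difference of 9.82 percentage points. The shares above the sibling range were those of mutant replicates 4, 5, 6 and 8, at 37.7% to 41.1%, while the other 4 mutants, at 17.6% to 27.5%, were within the sibling range. Without those 4 libraries the difference was 1.41 percentage points (exact permutation p = 0.721). It also missed 0.05 in 9 of 15 tests that left out 1 library, with exact permutation p from 0.0175 to 0.0852 over the 15. Those were the tests without sibling replicate 2, 3, 4 or 7 and without mutant replicate 3, 4, 5, 6 or 8. This comparison was chosen after the counts had been seen.

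**Figure D2:**
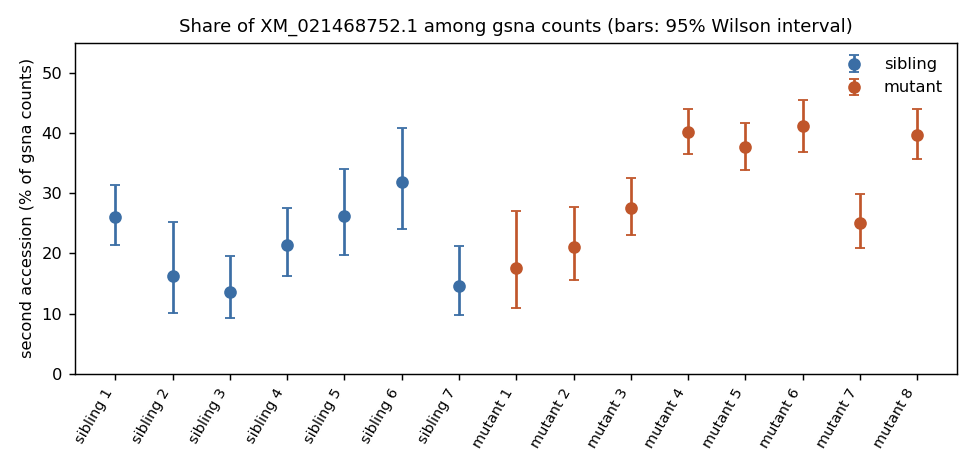
Percentage of gsna counts that fell on the second accession, XM_021468752.1, in each library; bars are 95% Wilson intervals, which cover counting error only. Mutant replicates 4, 5, 6 and 8 lie at 37.7% to 41.1%, and the remaining mutants lie within the sibling range of 13.5% to 31.9%.

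vil1, the villin gene, was near the limit of detection in siblings. Its main accession (NM_200238.1) had 45 counts in all siblings and 219 in all mutants. The lowest, median and highest levels were 0, 2.41 and 11.0 CPM in siblings and 3.93, 5.87 and 25.7 CPM in mutants. A count of 0, as in sibling replicate 2, allows up to 1.55 CPM. Sibling replicate 7 lay among the mutants, and 2 of 8 mutants lay above every sibling, namely replicates 4 and 7. The accession did not pass the filter on low counts and was not tested in the fit reported here. Without the filter its log2 fold change was 1.65 (SE 0.58, edgeR adjusted p = 0.0598), and the exact two-sided permutation p was 0.0151, unadjusted. The other accession, XM_005167920.4, ran from 0 to 10.5 CPM in siblings and from 0.823 to 10.4 CPM in mutants, with no mutant above every sibling (exact permutation p = 0.214).

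Villin is a defining protein of intestinal epithelium and also lies in the brush border of kidney tubule. Markers of both tissues are given here beside vil1. The 12 of 16 listed intestinal markers that were found summed to 77.8 to 193.2 CPM in siblings and 450.5 to 3796 CPM in mutants, with all 8 mutants above every sibling. None of the 12 was without counts in siblings. Of 8 tested, 7 were called as higher, beside 13.6% of all accessions. Of these, fabp1b.1, cdx1b and fabp6 reached at most 2.10, 2.71 and 2.45 CPM in any sibling. They passed the filter on low counts through the mutants, so nothing is read from the share called. Of 17 tested markers of pronephric epithelium, 0 were called as higher and 3 as lower, beside 5.54% of all accessions called as lower. Those 3 were slc5a12 (-3.69 on the log2 scale), slc13a1 (-2.28) and slc20a1a (-1.41). Of the 17, 15 had a log2 fold change below 0 and 2 above it. Whether the transcripts of either tissue bear on the level of vil1 was not tested.

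capgb, the gene of a capping protein, had the largest coefficient of variation among mutants of the 5 genes, 101.7%. Its lowest, median and highest levels (NM_001001594.2) were 0, 10.3 and 18.1 CPM in siblings and 0.907, 28.7 and 123.0 CPM in mutants. Mutant replicates 6 and 7 were highest, at 123.0 and 101.6 CPM, while mutant replicates 1, 2 and 3 lay within the sibling range. The levels of 2 siblings and 1 mutant rest on at most 3 counts. The log2 fold change was 2.33 (SE 0.72, edgeR adjusted p = 0.0328), and 5 of 8 mutants lay above every sibling. The exact two-sided permutation test gave an unadjusted p = 0.0755. The call was lost in 8 of 15 fits that left out 1 library, with adjusted p from 0.0132 to 0.0826 over the 15. It was lost without sibling replicate 2, 4, 5 or 6 and without mutant replicate 4, 6, 7 or 8, and also with limma with voom (adjusted p = 0.0713). Without mutant replicates 4, 5, 6 and 8 together the value was 1.81 (edgeR adjusted p = 0.275).

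Markers of epidermis and leukocytes are given beside capgb. The 21 epidermal markers found, of 26 listed and each with counts in siblings, summed to 1091 to 3787 CPM in siblings and 3148 to 13877 CPM in mutants, with 6 of 8 mutants above every sibling. Of 19 tested, 11 were called as higher, beside 13.6% of all accessions, while others such as cldne (0.41 on the log2 scale) and pkp3a (0.08) were not called. With that sum as a term the log2 fold change of capgb was 0.17 (edgeR adjusted p = 0.948). The sum itself differed between the groups, and with it as a term the number of called accessions fell from 2476 to 269. The part of epidermis in the level of capgb was not tested. Leukocyte markers, 12 found of 16 listed, summed to 108.9 to 192.8 CPM in siblings and 182.8 to 496.1 CPM in mutants, with 7 of 8 mutants above every sibling. Most of the sibling sum was rac2, whose median was 145.2 CPM in siblings and 146.8 CPM in mutants (0.08 on the log2 scale, not called). Of 5 leukocyte genes tested, 4 were called as higher, beside 13.6% of all accessions. These 4 (coro1a, lcp1, lyz and fcer1gl) had sibling medians of only 0.542 to 1.08 CPM. They passed the filter on low counts mainly through the mutants, so nothing is read from that share. Among defining genes lyz, the lysozyme gene of myeloid cells, ran from 0 to 2.71 CPM in siblings and from 6.98 to 146.4 CPM in mutants. By contrast mfap4.1 and tyrobp had at most 3 counts in all, csf1ra had 5 and lgals9l1 had 8. The part of leukocytes in the level of capgb was not tested.

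Of the 7 listed genes other than scinla, 3 passed the filter and 2 of these, gsna and capgb, were called, beside 19.2% of all accessions. With 3 genes tested nothing is read from that share. The call of each was lost with the epidermal marker sum, the erythrocyte and endothelium marker sum or the number of detected accessions as a term. No test of scinla against its relatives was made, because its fold chose it.

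Deviations from the group means were compared across the 15 libraries to see which genes varied with scinla. These correlations describe libraries that share an index within each group and differ in depth. capgb had a Pearson r of 0.64 with scinla and gsna had 0.58, while scinlb had 0.20 and vil1 0.40. By Spearman rank correlation the values were 0.55 for capgb, 0.54 for gsna, 0.29 for scinlb and 0.15 for vil1. The order of scinlb and vil1 thus depends on the measure. With the epidermal marker sum, as it entered the fits, r was 0.61 for capgb, 0.44 for vil1, 0.37 for scinla, 0.34 for gsna and 0.03 for scinlb. The part of that sum in the correlations between members was not tested. Of 10908 other accessions with at least 10 CPM on average, 10812 had a lower r with scinla than capgb had, and 8074 had a lower r than scinlb had. The accessions most like scinla were those of nampt1 (r = 0.88), cds1 (0.83), stxbp6 (0.81), hrasb (0.79), brox (0.79) and XM_001339078.7 (0.78), which matched no symbol. As the highest of 10908 ranked values, these r were picked for their size. Among mutants alone they ran from 0.41 (brox) to 0.93 (cds1), and among siblings alone from 0.78 (hrasb) to 0.97 (stxbp6). The first of the ranking, nampt1, had a sibling median of 22.0 CPM and a mutant median of 19.7 CPM, so it varied with scinla within the groups without a like difference between them.

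In the gene table of the assembly GRCz12tu, scinla lies on the same chromosome as actl6a, with 110 listed genes between them, whereas scinlb, gsna, vil1 and capgb lie on others. Of 30 tested genes between actl6a and scinla, 8 (26.7%) were called. The share was 18.9% of tested genes on that chromosome, with the interval included but actl6a and scinla left out, and 18.4% on other chromosomes. The median log2 fold change in the interval was -0.09. The difference between these shares was not tested. Among the 10 listed genes on each side of scinla, 5 were tested and edgeR called 0, with 1 at an unadjusted p under 0.05, while DESeq2 called 0 and limma with voom 2. Homozygous mutants were selected at actl6a, and whether a linked haplotype differs at scinla was not tested.

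The share of genes called in the rest of the actin machinery was near that of all accessions, and nothing particular to these genes is read from it. Of 101 listed genes, 76 were found and 58 tested, with 8 higher and 1 lower in mutants (15.5%), beside 19.2% of all accessions. Their median log2 fold change was 0.14, beside 0.04 over all accessions tested. The number called fell from 9 to 5 without mutant replicates 4, 5, 6 and 8, and to 2 with the epidermal marker sum as a term. Over all accessions the same settings took the number called from 2476 to 511 and to 269. The fit without those libraries also has fewer mutants, so its fall is not read as a trait of the actin genes.

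The Arp2/3 complex starts branched filaments. edgeR called 0 of its 10 tested subunits, with 0 at an unadjusted p under 0.05, while DESeq2 called 0 and limma with voom 1. Their fold changes had a median of 0.05 (log2). Among the actins themselves edgeR called 1 of 7 (14.3%, beside 19.2% of all accessions), with 3 at an unadjusted p under 0.05. DESeq2 called 2 and limma with voom 2. The gene called by edgeR was acta2, the smooth muscle actin, with a sibling median of 3.32 CPM and a mutant median of 126.0 CPM (a difference of 3.34 on the log2 scale, SE 0.69, edgeR adjusted p = 0.00367). For acta2, 6 of 8 mutants lay above every sibling.

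Among genes of actin turnover, 4 were called as higher and 1 as lower of 25 tested. That is 20%, near the 19.2% of all accessions, and nothing is read from the share. tmsb1, a thymosin that holds actin monomers, ran from 87.6 to 209.2 CPM in siblings and rose to between 228.0 and 1116 CPM in mutants, with no overlap (1.76 on the log2 scale, edgeR adjusted p = 0.00409). cap1, whose protein recycles actin monomers, rose by 0.73 (edgeR adjusted p = 0.00469). coro1a, a coronin of leukocytes that also stands in the leukocyte list, rose by 3.17 (edgeR adjusted p = 0.00555). pfn4, a profilin gene expressed in testis in mammals, fell by 1.26 on the log2 scale (edgeR adjusted p = 0.0259). The fifth, outside the rule for naming genes, was the profilin gene pfn1 at 1.16.

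Of 34 listed brush border and bundling genes 23 were found and 14 tested. Of the 14, 3 were called as higher and 0 as lower (21.4%, beside 19.2% of all accessions), with a median of 0.02. The others did not pass the filter on low counts. Among them the medians of siblings and mutants were 0.417 and 22.4 CPM for cdhr2 and 0 and 14.9 CPM for eps8l2. For cdhr5a they went the other way, 0.417 and 0 CPM. anks4b, whose mammalian product links cadherins between microvilli, had a sibling median of 3.32 CPM and a mutant median of 76.2 CPM (4.89 on the log2 scale, SE 0.62, edgeR adjusted p = 4.97e-05), and all 8 mutants lay above every sibling. ush1c, which encodes its partner harmonin, rose from a median of 11.3 to 127.3 CPM, by 3.28 (SE 0.44, edgeR adjusted p = 0.000153). lcp1, the plastin of leukocytes and a member of that list too, rose by 2.88 (edgeR adjusted p = 0.0166).

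**Figure D3:**
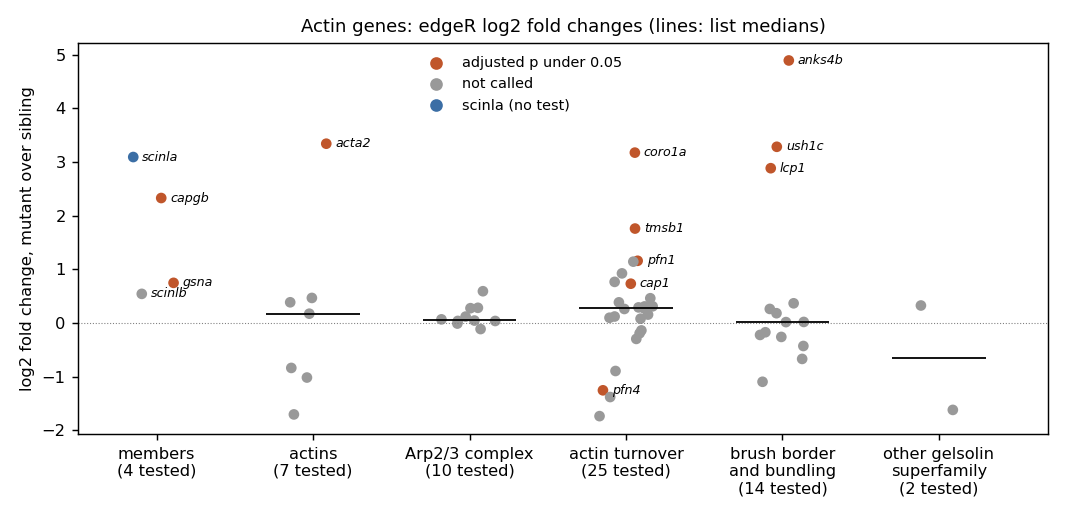
Log2 fold change (mutant over sibling, edgeR) of each tested gene in the family and in 5 lists of actin genes; orange points had an adjusted p under 0.05, grey points did not, and scinla (blue) has no test. Lines are list medians, which lie between -0.65 and 0.27, and the called genes are named.

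Among other relatives of the family, flii and capga were tested and edgeR called 0 of them, with 1 at an unadjusted p under 0.05, and DESeq2 and limma with voom called 0 as well. capga, the paralog of capgb, had a log2 fold change of -1.62, with 2.01 to 116.8 CPM in siblings and 0.513 to 55.3 CPM in mutants. avil and svila did not pass the filter. A gene listed as scin (NM_001045118.2) is outside the chosen members and was examined after its values had been seen. It ran from 0.489 to 50.7 CPM in siblings, with a median of 1.67, and from 16.7 to 81.6 CPM in mutants, with a median of 39.1. Its log2 fold change was 1.89 (SE 0.65, edgeR adjusted p = 0.0521), with an unadjusted exact two-sided permutation p = 0.00420. It was called by limma with voom (3.19, adjusted p = 0.00330) and by edgeR with the replicate number as a block (adjusted p = 0.0210), but not by DESeq2 (adjusted p = 0.0805). With the epidermal marker sum as a term the value was 1.26 (edgeR adjusted p = 0.515), and without mutant replicates 4, 5, 6 and 8 the edgeR adjusted p was 0.137. Sibling replicate 7, at 50.7 CPM, and sibling replicate 3, at 21.1 CPM, overlapped the mutants, and the other 5 siblings lay below every mutant.

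**Figure D4:**
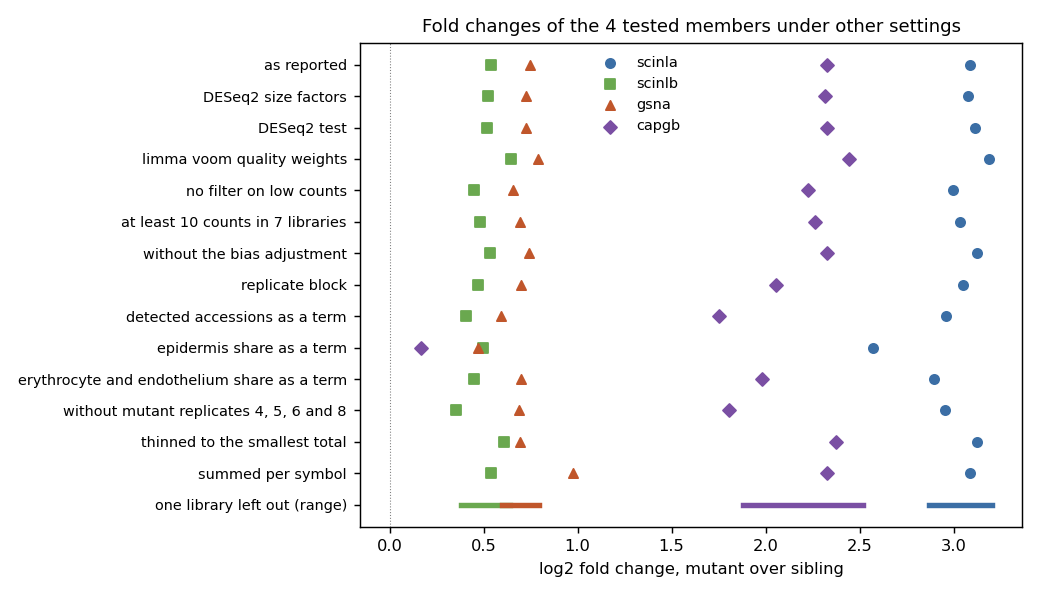
Log2 fold change of the 4 members with a fitted value under each processing alternative, with the range over fits that left out 1 library as a bar at the bottom. scinla, chosen for its rise in these same libraries, stays between 2.57 and 3.21, while capgb falls to 0.17 with the epidermal marker sum as a term.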

How the data were processed

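Counts were deposited as whole numbers for each RefSeq accession, in 2 tables, 1 per sequencing index, with a column per barcode that the labels tie to a sample. The submitters' processing notes name cutadapt, FastQC, STAR, featureCounts, edgeR and the build GRCz11, without roles or versions. Whether duplicate reads were removed is not given in the sources used here. Where an accession stood in only 1 table, its count in the other was set to 0. Every row names an accession. Symbols came from a RefSeq gene table of GRCz12tu, used for names and gene order only; 20439 of 33298 accessions matched.

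The test between genotypes used edgeR 4.0.16 (R 4.3.3; filterByExpr, TMM, glmQLFit with robust estimation and bias adjustment, glmQLFTest). SE is the absolute log2 fold change over the square root of F. For single genes, exact two-sided permutation was applied to log2 CPM (prior count 2) or to a share over all 6435 splits. Alternatives used DESeq2 1.42.0, limma 3.58.1 with voom, other filters, terms and libraries. Marker sums entered as terms as log2 CPM of the total count, without TMM factors. All printed CPM use TMM-scaled totals of the accessions that passed the filter. Python 3.11.15, scipy 1.17.1 and matplotlib 3.10.9 made summaries and plots. Intervals and floors of 3 counts cover counting error only.

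The members, gene lists and tests were chosen with earlier results of these data known. The text names the members, actl6a, up to 4 called genes with the smallest p-values per actin list, and the 6 accessions most correlated with scinla; other names were chosen after their values were seen. Replicates within groups differed beyond sampling noise in all 49 pairs (chi-square per degree of freedom 8.39 to 39.3).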

Additional observations from a re-analysis of the deposited data

Results flagged for a closer look

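In 18 groups of libraries (9 accessions in each genotype) the highest or lowest library was set against the rest with Dixon's 95% limit. About 0.9 such libraries come by chance, and 3 stood apart. scinlb in mutant replicate 2, at 27.2 CPM, lay far below the other mutants. vil1 (NM_200238.1) in sibling replicate 7, at 11.0 CPM, lay far above the other siblings. scin in the same library, at 50.7 CPM, also lay far above them.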

How the results depend on the processing

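The log2 fold changes of scinlb, gsna and capgb kept their sign in every fit run. That of scinla did too, but the gene was chosen for its rise in these same libraries. Its range over the fits is therefore a description and no support for the rise. scinla ranged from 2.57 to 3.21 and scinlb from 0.35 to 0.65, the latter called by limma with voom and in 2 of 15 fits that left out 1 library. The number of called accessions, 2476, was 4324 with DESeq2, 5852 with limma with voom quality weights (49.5% higher, against 71.1%), 3960 with no filter, 1631 without the bias adjustment (chosen after seeing the data), 1031 at an adjusted p under 0.01, 1281 with detected accessions, 269 with the epidermal marker sum and 946 with the erythrocyte and endothelium marker sum as a term, 511 without mutant replicates 4, 5, 6 and 8, and 1621 to 3390 with 1 library left out, lowest without mutant replicate 8. The count of called members other than scinla, 2, was 1 with no filter and without the bias adjustment (gsna remained), 1 to 3 with 1 library left out, and 0 in edgeR with each of the 3 terms, without mutant replicates 4, 5, 6 and 8 and at an adjusted p under 0.01; at an unadjusted p under 0.05 these held 1 (detected accessions), 0 (epidermis), 1 (erythrocyte and endothelium), 1 and 3. Called genes of the actin lists, 9, numbered 15 with limma with voom, 2 with the epidermal term, 5 without mutant replicates 4, 5, 6 and 8 and 6 to 12 with 1 library left out. The cause was not tested. With the replicate number as a block 1097 accessions and 0 members were called (2 at an unadjusted p under 0.05). Same-numbered libraries did not deviate together (correlations -0.54 to 0.26, with 1 of 7 siblings closest to its own number). No pairing by number is seen in these values, but such correlations cannot exclude one. Depth limits vil1, with at most 3 counts in 3 siblings, and also capgb, with at most 3 counts in 2 siblings and 1 mutant.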
